A study of Ovis aries with 36 samples.

Results

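The pars tuberalis is the thin part of the pituitary gland that wraps around its stalk, and it is known as the place where the pituitary reads the length of the night. Its cells carry melatonin receptors, and in long days its thyrotropin-producing cells signal back to the hypothalamus and so take part in the seasonal control of reproduction. It also sends signals to the prolactin cells of the pituitary. The 165 genes described here were far more abundant in the pars tuberalis than in the hypothalamus or the pineal gland of the same 12 rams. They are 165 of 26478 counted genes (0.623%), and 1.56% of the 10574 genes with a pars tuberalis median of at least 10 counts per 1000000 counts of the library (CPM). A gene was taken when its median over the 12 pars tuberalis libraries was at least 10 CPM and at least 10 times its hypothalamus median and 10 times its pineal median. The members were thus chosen by their measured tissue medians. In all, 169 genes met these thresholds, and 4 very abundant IDs were left out by name.

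Messenger RNA was sequenced from the pars tuberalis, hypothalamus and pineal gland of adult Rasa Aragonesa rams, a Spanish sheep breed, of which 6 were sexually active (animals 1 to 6) and 6 were not active, called inactive here (animals 7 to 12). Each ram gave 1 library per tissue, so the 6 libraries of a group came from 6 different animals, and the 6 groups together hold 36 libraries. The design takes state as the first factor and tissue as the second. No treatment, genotype or time of collection is stated in the sources used here. Depth was 31.1 ± 3.54 units of 1000000 counts in pars tuberalis libraries of active rams and 26.8 ± 3.16 in those of inactive rams (SD, n = 6 each), and it ran from 19251952 to 72951491 counts over all 36 libraries. Genes carry Ensembl sheep IDs without symbols, and 0 of the 26478 IDs matched the gene table at hand. Tissue labels and the other cell types in each sample therefore could not be checked against named markers, no role can be given for any gene, and no gene sequence is shown. The hypothalamus library of active animal 4 stands apart in the genes described here, and the state results that rest on it are given with and without it. The samples are pieces of whole tissue, in which fewer cells of a type and less RNA per cell cannot be told apart.

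The tissue difference of these genes is what chose them, so it is described without a test. Pars tuberalis medians ran from 10.0 to 13774 CPM, with a median of 41.8 and quartiles of 24.6 and 98.2 CPM. Only 5 genes reached 1000 CPM, 40 reached 100 CPM and 33 stayed under 20 CPM. In the hypothalamus the same 165 genes had medians of 0 to 436 CPM, with a median of 1.13 CPM, and 76 of them were under 1 CPM. Their pineal medians were 0 to 1301 CPM, with a median of 0.629 CPM, and 101 were under 1 CPM. CPM is not corrected for gene length, so these levels rank genes by reads and not by molecules.

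The hypothalamus was the nearer tissue for most of them. The higher of the other tissues' medians came from the hypothalamus in 119 genes and from the pineal gland in 44, and it was 0 in both for 2. The ratio of the pars tuberalis median to the higher of the other medians was 10 to 20 in 73 genes, 20 to 50 in 39, 50 to 100 in 16 and over 100 in 37, counting the 2 genes with medians of 0 elsewhere. In 132 genes every pars tuberalis library stood above every other library, and in 33 at least 1 library of another tissue reached into the pars tuberalis range. Without the hypothalamus library of active animal 4, the number with no such overlap was 155. A choice by tissue medians itself favours genes without overlap, and no share over all genes is given. At the fold threshold, ENSOARG00020014105 (10.03) and ENSOARG00020004920 (10.09) were just inside, and ENSOARG00020009094 (9.95) and ENSOARG00020025102 (9.94) just outside. At the level threshold, ENSOARG00020010364 (10.01 CPM) and ENSOARG00020010572 (10.03 CPM) were just inside, and ENSOARG00020021805 (9.99 CPM) and ENSOARG00020010645 (9.85 CPM) just outside. The last of these had a hypothalamus median of 0.0134 CPM and a pineal median of 0.

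Single genes span this range. ENSOARG00020009294, the most abundant, had a lowest, median and highest level of 9332, 14183 and 16478 CPM in the pars tuberalis of active rams and of 9301, 13541 and 15606 CPM in that of inactive rams. It was also the gene with the highest single library outside the pars tuberalis, at 1340 CPM in the hypothalamus (active animal 4) and 1765 CPM in the pineal gland (active animal 6). Its pineal libraries held between 711 and 1765 CPM throughout, so its presence outside the pars tuberalis did not depend on 1 animal. At the other end, ENSOARG00020010572 had 4.76 to 25.7 CPM in active against 6.78 to 20.6 CPM in inactive pars tuberalis. Its hypothalamus counts were 5 in active animal 4 and 6 in active animal 6, and 0 in the other 10 hypothalamus libraries. ENSOARG00020010364, the gene of lowest pars tuberalis median, ranged from 1.86 to 18.8 CPM in active and from 2.87 to 30.1 CPM in inactive pars tuberalis, and it reached 14.4 CPM in the hypothalamus of active animal 4.

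Summed over the 165 genes, pars tuberalis libraries held 46903 ± 13754 CPM in active rams and 38428 ± 4465 CPM in inactive rams (SD, n = 6 each). This is between 3.02% and 7.41% of all counts in the library. The lowest, median and highest sums were 38986, 40351 and 74143 CPM in active rams and 30245, 39223 and 42369 CPM in inactive rams, so the ranges overlapped, and the highest sum was that of active animal 1. In the hypothalamus the sums were 923, 1719 and 6134 CPM in active rams and 707, 1011 and 1983 CPM in inactive rams. Pineal sums were 1189, 1806 and 2326 CPM in active and 1686, 1806 and 2085 CPM in inactive rams.

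A sum is led by its most abundant genes, so the typical gene was also followed, by taking each gene's level in a library as a percent of its own pars tuberalis median and then the median over the 165 genes. Pars tuberalis libraries had a typical level of 88.9% to 110% in active rams and 78.6% to 103% in inactive rams, and the lowest value belonged to inactive animal 7. In the hypothalamus it was 18.0% in active animal 4, between 2.08% and 4.81% in the other 5 active rams and between 1.97% and 3.93% in the inactive rams. Pineal libraries had 1.28% to 2.05% in active rams and 1.10% to 2.32% in inactive rams, highest in inactive animal 10. The plot of levels by library shows 1 hypothalamus library apart and no other library between the tissues. The summed level of the 4 left-out IDs was 11602 to 28449 CPM in active against 5866 to 28155 CPM in inactive pars tuberalis. In the hypothalamus it was 2391 CPM in active animal 4, against 0.188 to 428 CPM in the other 11 libraries. Among pineal libraries too it was highest in active animal 4, at 507 CPM, against 0.0411 to 42.7 CPM in the other 11, where the typical level of the 165 genes was highest in inactive animal 10.

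**Figure D1:**
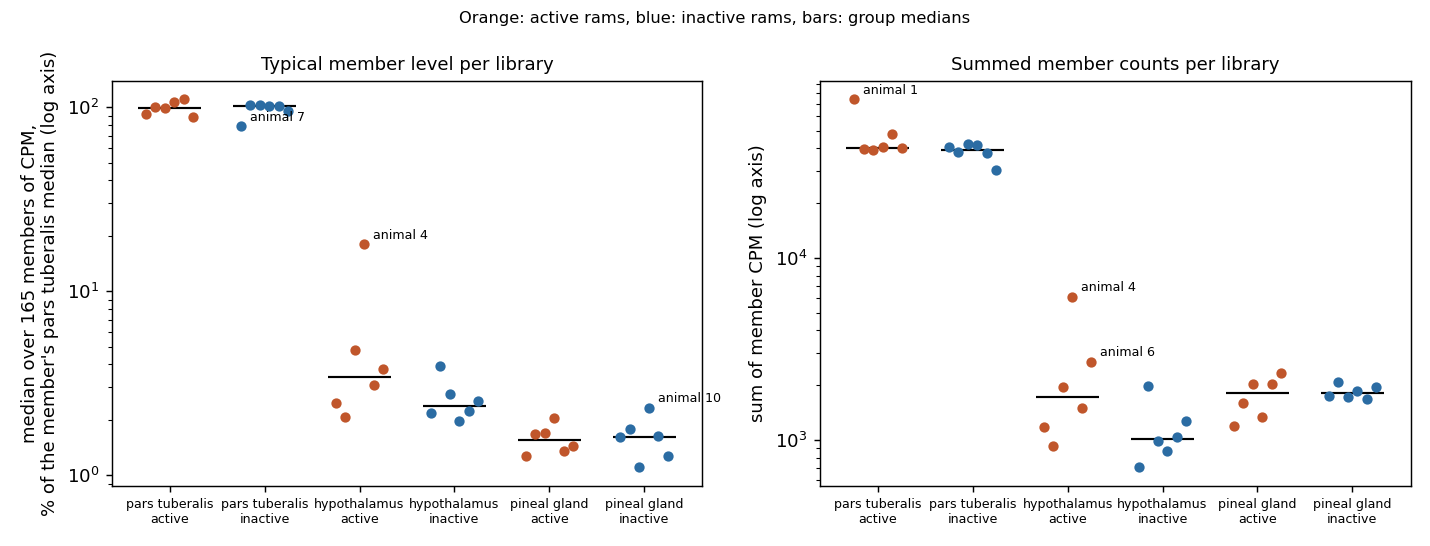
Levels of the 165 pars tuberalis-enriched genes in each of 36 libraries, on log axes: on the left the typical level, a percent of the pars tuberalis median, and on the right the summed CPM. Points are libraries (orange for active rams, blue for inactive rams) and bars are group medians. The hypothalamus library of active animal 4 stands at 18.0% on the left, where the next hypothalamus library has 4.81%.

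Within the pars tuberalis these genes varied more from ram to ram than genes of that tissue in general. Their coefficient of variation over the 12 pars tuberalis libraries had a median of 30.0%, against 19.6% over all 10574 genes of that level in the tissue. It exceeded 50% in 23 of the 165 genes (13.9%), against 3.86% of the 10574 genes. TMM scaling, which corrects for the make-up of each library, gave medians of 30.4% and 19.4%. The steadiest gene was ENSOARG00020005364 with a coefficient of 7.02%, which had 119, 134 and 140 CPM (lowest, median and highest) in active and 109, 130 and 139 CPM in inactive pars tuberalis. ENSOARG00020015913 had 29.1 to 39.1 CPM in active against 33.8 to 41.4 CPM in inactive pars tuberalis. In both genes the ranges of active and inactive rams overlapped.

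The least steady gene was ENSOARG00020022037, the second in abundance, with a coefficient of variation of 148%. It had 2050, 5621 and 47381 CPM (lowest, median and highest) in active and 1459, 3602 and 15556 CPM in inactive pars tuberalis. The highest values were those of active animal 1 and inactive animal 7, and the other 10 libraries held at most 8719 CPM. In active animal 1 this gene alone made up 63.9% of the summed level of the 165 genes. With it left out, the sums of the 12 pars tuberalis libraries ran from 24957 to 39301 CPM. ENSOARG00020019337 had a coefficient of 119%, with 1.57 to 32.5 CPM in active against 8.96 to 147 CPM in inactive pars tuberalis, the lowest in active animal 4 and the highest in inactive animal 7.

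Pairs of these genes were weakly correlated between rams in the median, which can hide groups of genes that move together or in opposite directions. The 13530 pairs of genes had a median Spearman correlation of 0.08 over the 12 pars tuberalis libraries, with 90% of pairs between -0.58 and 0.69, against a median of 0.06 for pairs of all genes at that level. Above 0.7 stood 4.44% of pairs and below -0.7 stood 1.66%, and no such shares over all genes are given. These correlations are descriptions over 12 libraries that share depth and make-up within each library. The first principal component of the 165 genes held 40.0% of the variance and the second 16.1%. Scores on the first were 12.9 for inactive animal 7, 5.25 for active animal 6 and -6.67 to 2.59 for the other 10 rams, and active and inactive rams overlapped on it.

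The pars tuberalis library of inactive animal 7 was the lowest of the 12 in 72 of the 165 genes (43.6%), and it was also the lowest in 46.3% of the 10574 genes. In 51 of the 165 (30.9%) its level was at most 0.5 times the median of the other 11 libraries, against 20.1% of the 10574 genes. At least a 2-fold higher level was seen in 12 (7.27%), against 6.84% of the 10574. The ratio ran from 0.0422 to 10.4, and the highest was that of ENSOARG00020019337. This library also had the smallest TMM factor among the pars tuberalis libraries (0.883) and the smallest summed level of the 4 left-out IDs, 5866 CPM. The counts and ratios above use CPM without TMM scaling. With TMM scaling its typical level of the 165 genes was 94.6% in place of 78.6%. The lowest of the 12 was then active animal 1 at 90.7%, followed by inactive animal 12 at 91.2%.

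**Figure D2:**
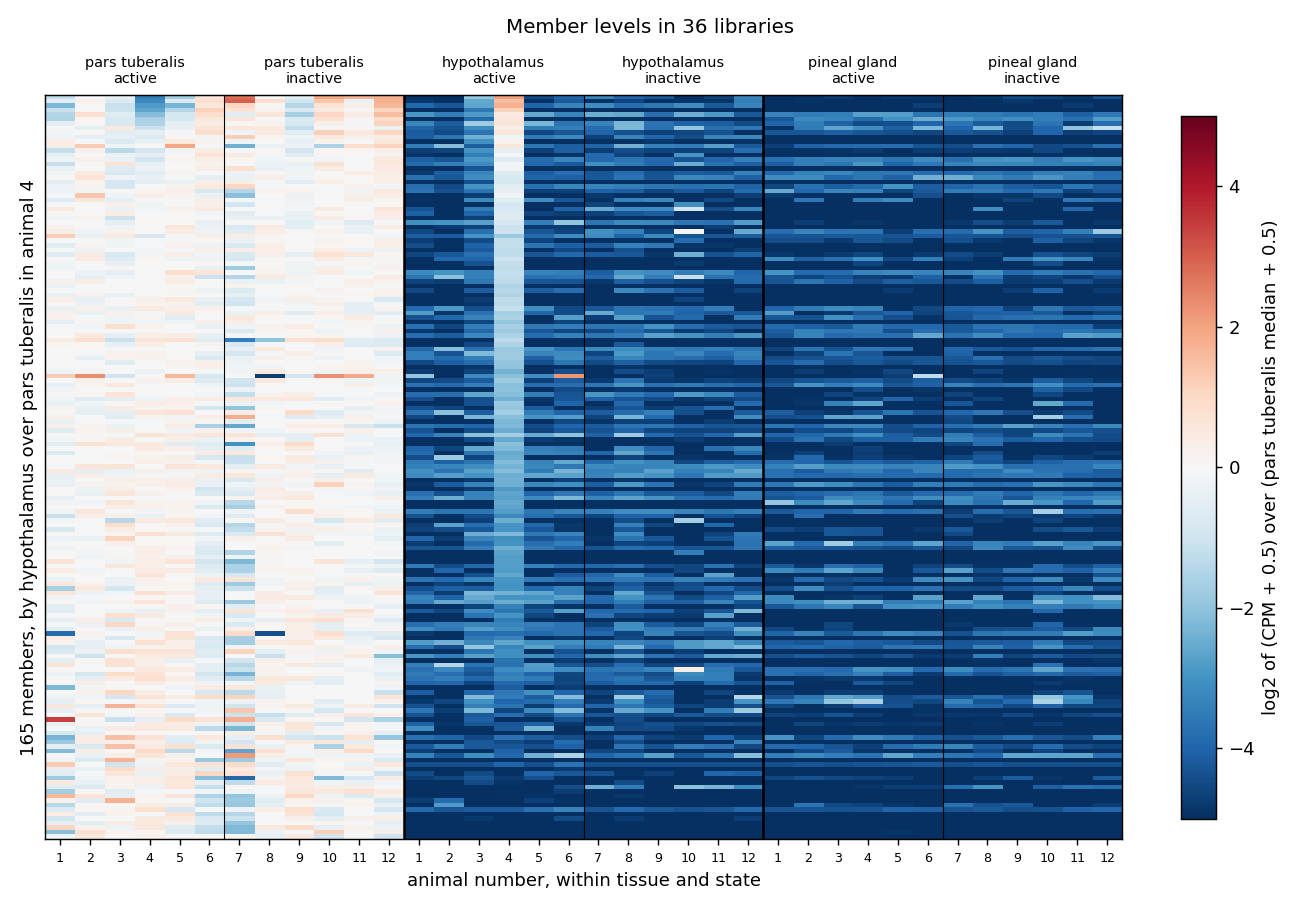
Level of each of the 165 genes (rows) in each of 36 libraries (columns, by tissue, state and animal), as log2 of CPM + 0.5 over the gene's pars tuberalis median + 0.5. Rows are ordered by the ratio of hypothalamus to pars tuberalis in active animal 4. The column of that hypothalamus library is red or pale at the top, where the other hypothalamus columns are mostly blue.

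The hypothalamus library of active animal 4 held most of these genes at raised levels. Whether its sample also held tissue of the pars tuberalis was not tested, since no named markers were at hand. It was the highest of the 12 hypothalamus libraries in 114 of the 165 genes (69.1%), against 22.4% of the 10574 genes. In 128 genes its level was over 2 times the median of the other 11 hypothalamus libraries, in 61 it was over 10 times, and in 10 it was below that median. Counted in the same way, the other 11 libraries had 7 to 70 genes over 2 times, with 70 in active animal 3 and 62 in active animal 6. No shares over all genes are given for these counts. Set against the pars tuberalis library of the same ram, the genes did not stand at 1 common fraction. The hypothalamus level was 15.7% of the pars tuberalis level in the median gene, with quartiles of 6.51% and 39.6%, and the middle 90% of genes ran from 0.972% to 192%. Under 1% was found in 9 genes, 1% to 10% in 45, 10% to 100% in 94 and over 100% in 17. In the other 11 rams the median ratio of hypothalamus to pars tuberalis was 2.04% to 4.73%, and at most 1 gene per ram exceeded 100%.

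The 17 genes that were more abundant in the hypothalamus than in the pars tuberalis of active animal 4 were picked after their values were seen. They held 7.03 to 309 CPM in that hypothalamus library, where the medians of the other 11 hypothalamus libraries were 0.113 to 5.61 CPM, and their pars tuberalis medians were 10.0 to 76.3 CPM. The extreme case was ENSOARG00020024813, with 309 CPM in the hypothalamus and 6.33 CPM in the pars tuberalis of that ram. In 9 of the 17 the pars tuberalis library of animal 4 was the lowest of the 12, which was so in 11 of all 165 genes, and a choice by that ratio itself favours genes that are low there. The next highest hypothalamus library was that of active animal 3 in 12 of the 17, and in 47 of the 114 genes that were highest in active animal 4. Over the 11 pars tuberalis libraries of the other rams, pairs of the 17 genes had a median Spearman correlation of 0.53 and 90.4% of pairs were positive, against 0.13 and 61.9% for pairs of the other 148 genes. These 11 include inactive animal 7. Its level over the median of the other pars tuberalis libraries was 1.38 in the median of the 17 genes, against 0.726 in the other 148. Whether the correlations rest on that library was not tested.

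**Figure D3:**
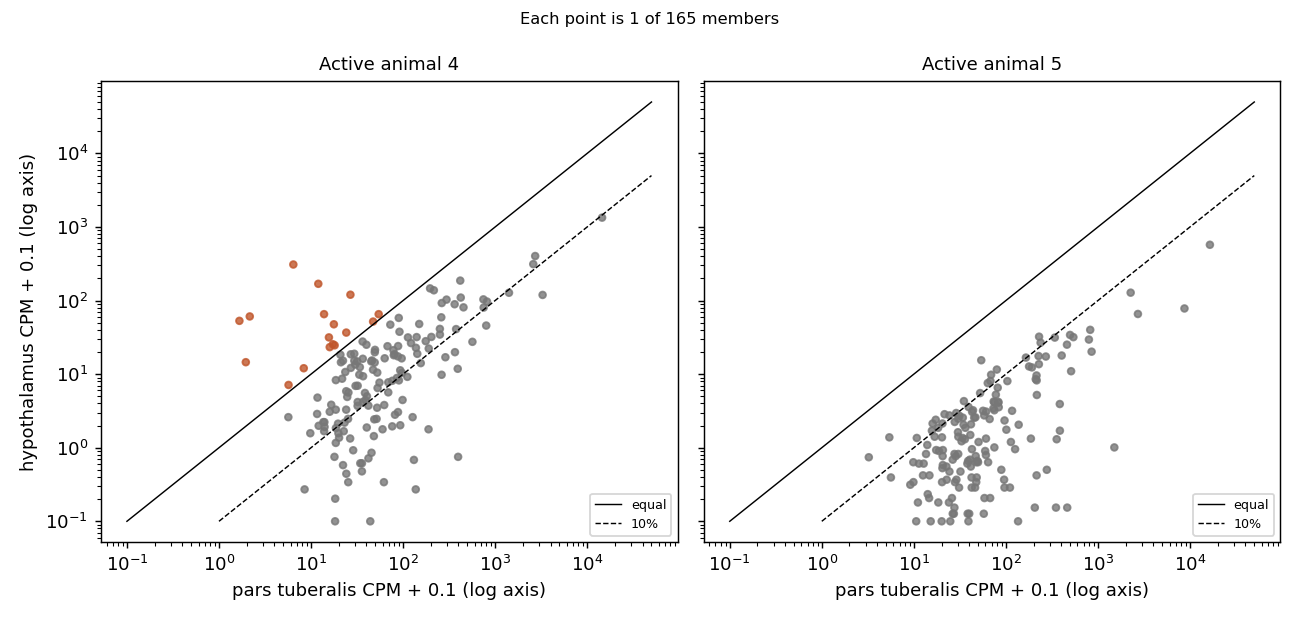
Hypothalamus level against pars tuberalis level of the same ram, for active animal 4 (left) and, as an example of the other rams, active animal 5 (right). Each point is 1 of the 165 genes, as CPM + 0.1 on log axes, and points above the line of equal levels are orange. In animal 4 there are 17 such genes and in animal 5 there are 0.

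State was not used to choose the genes, since the medians ran over active and inactive rams together, so it could be tested. All 165 genes passed the filter on low counts, which a gene could do through its pars tuberalis libraries alone, and entered a fit of 16773 genes. In the pars tuberalis, 0 of the 165 genes had an adjusted p below 0.05, the level for a call (quasi-likelihood test of edgeR, Benjamini-Hochberg over all genes), and 0 of 16773 genes (0%) were called. At an unadjusted p below 0.05 stood 3 of the 165 (1 higher and 2 lower in active rams), against 3.54% of all genes tested. DESeq2 also called 0 of the 165, and 1 gene in all (0.00596%). The log2 difference between active and inactive rams was positive in 95 of the 165 genes, with a median of 0.05, against -0.01 over all genes tested. In 0 of the 165 did the active and inactive libraries not overlap, against 0.0954% of all genes tested.

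The fit leaves room for differences in many of these genes. The 95% interval of the state difference lay within 2-fold in 47 of the 165 (28.5%), against 72.3% of all genes tested. The spread in that fit is shared by the 3 tissues, so hypothalamus and pineal libraries, where these genes have few counts, also enter it. The median standard error of the 165 pars tuberalis differences was 0.475 in that fit and 0.235 with the 12 pars tuberalis libraries alone. What widened the intervals was not tested. When only the 12 pars tuberalis libraries were fitted, the interval lay within 2-fold in 127 of the 165 (77.0%), against 80.7% of all genes, and again 0 genes were called.

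The 2 genes of lowest p in each direction are given as values, since none was called. ENSOARG00020024813 had 6.33, 43.6 and 110 CPM (lowest, median and highest) in active and 49.6, 246 and 490 CPM in inactive pars tuberalis, a log2 difference of -2.28 (SE 0.892, edgeR adjusted p 0.967). The groups overlapped between 49.6 and 110 CPM, with the lowest library in active animal 4 and the highest in inactive animal 7. ENSOARG00020016569 had 7.51, 23.7 and 25.9 CPM in active and 22.5, 36.3 and 43.1 CPM in inactive pars tuberalis (log2 difference -0.70, SE 0.318, edgeR adjusted p 0.967). ENSOARG00020024525 had 11.2, 17.5 and 18.7 CPM in active and 8.60, 10.8 and 16.4 CPM in inactive pars tuberalis (0.52, SE 0.248, edgeR adjusted p 0.967). ENSOARG00020001751 had 36.2, 70.6 and 197 CPM in active and 28.8, 58.9 and 83.1 CPM in inactive pars tuberalis (0.62, SE 0.358, edgeR adjusted p 0.967), and without animal 3, the ram with 197 CPM, its difference was 0.20.

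In the hypothalamus, 7 of the 165 genes were called, 6 higher and 1 lower in active rams, of 16 genes called in all (0.0954% of 16773). Over all genes 11 were called higher (0.0656%) and 5 lower (0.0298%). At an unadjusted p below 0.05 stood 81 of the 165 (79 higher and 2 lower), against 9.33% of all genes tested. The log2 difference was positive in 143 of the 165 genes, with a median of 1.07, against 0.01 over all genes. On the 12 hypothalamus libraries alone, 34 of the 165 had too few counts to pass the filter. They entered the fit through their counts in other tissues, which limits the comparison with all genes. These 34 include 3 of the 7 called genes, all 3 higher in active rams. All 6 called higher, and 66 of the 79, had their highest hypothalamus level in active animal 4. In 0 of the 165 were the groups apart, against 0.0596% of all genes. Without that 1 library, edgeR called 0 of the 165 and 0 genes in all (0%). The median difference was then 0.27, and 32 of the 165 (23 higher and 9 lower) stood at an unadjusted p below 0.05, against 8.28% of all genes tested.

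**Figure D4:**
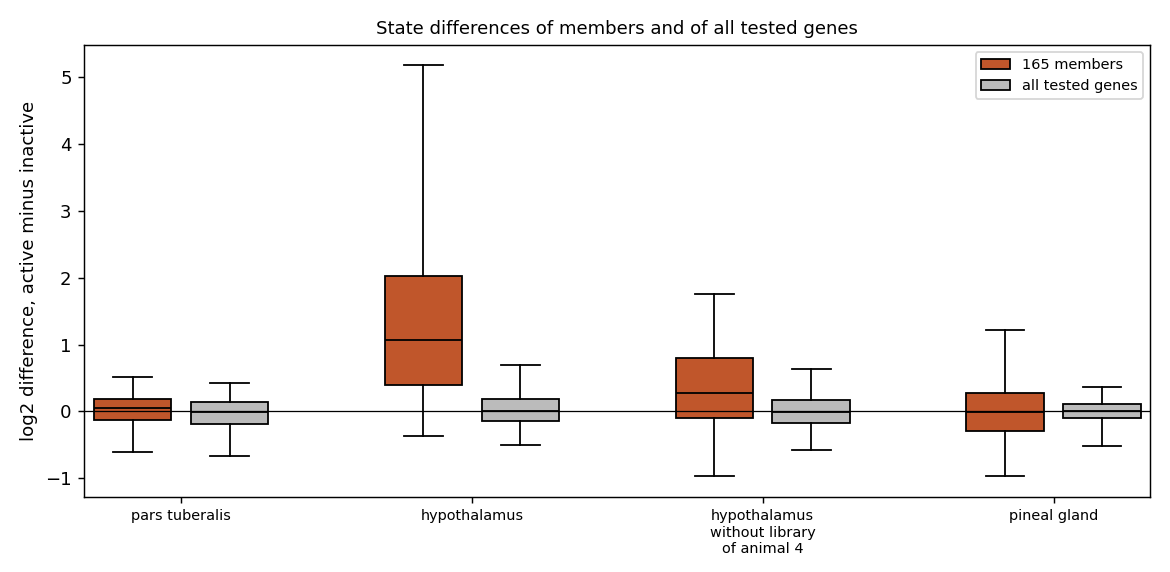
Log2 difference between active and inactive rams over the 165 genes (orange) and over all genes tested (grey) in each tissue, and in the hypothalamus without the library of active animal 4. Boxes give quartiles with the median as a line, and whiskers give the middle 90% of genes. The median of the 165 genes is 1.07 in the hypothalamus, 0.27 there without that library, -0.01 in the pineal gland and 0.05 in the pars tuberalis.

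The count of 7 also moved with other animals. Leaving out all libraries of 1 ram, it was 0 without animal 4, 10 or 11, with 0 genes called in all. It was 1 without animal 7 (of 4 genes called) or animal 9 (of 2), 2 without animal 3 (of 5), 3 without animal 12 (of 6) and 7 without animal 8 (of 54). Without animal 1, 2, 5 or 6 it was 14 to 17, of 25 to 37 genes called. DESeq2 called 36 of the 165 (35 higher and 1 lower, among 138 genes in all, 0.823%), including all 7, and 32 of the 36 were highest in active animal 4. Without that library, DESeq2 called 6 of the 165 (4 higher and 2 lower, among 79 genes, 0.468%), of which 2 were among the 7. With the animal as a random block in limma's voom fit, 0 of the 165 and 1 gene in all (0.00596%) were called, the median difference of the 165 was 0.71, and 27 of them (26 higher and 1 lower) stood at an unadjusted p below 0.05, against 7.99% of all genes. An edgeR fit of the 12 hypothalamus libraries alone tested 131 of the 165 and called 0 of them and 0 genes in all (0%), with 28 of the 131 (27 higher and 1 lower) at an unadjusted p below 0.05, against 4.54% of all genes.

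ENSOARG00020026374 had 0.0512, 0.223 and 25.0 CPM (lowest, median and highest) in active and 0, 0.0221 and 0.0754 CPM in inactive hypothalamus, with 729 counts in active animal 4 and at most 24 in any other hypothalamus library. Its log2 difference was 7.08 (SE 1.24, edgeR adjusted p 0.0187), and 3.41 (adjusted p 0.176) without that library. ENSOARG00020004662 had 0.0768, 1.24 and 92.5 CPM in active and 0, 0.200 and 1.32 CPM in inactive hypothalamus, a difference of 5.57 (SE 1.08, edgeR adjusted p 0.0300), and 2.43 (adjusted p 0.296) without that library. Their differences in the pars tuberalis were -0.10 and -0.05, with levels of 18.7 to 53.5 CPM for ENSOARG00020026374 and of 194 to 305 CPM for ENSOARG00020004662. The remaining 4 genes called higher had log2 differences of 4.68 to 6.03 with all libraries and of 1.62 to 2.38 without the hypothalamus library of active animal 4.

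ENSOARG00020016201 was the gene called lower, and its values did not come from animal 4. It had 0.514, 0.619 and 1.56 CPM (lowest, median and highest) in active and 0.653, 6.07 and 10.1 CPM in inactive hypothalamus. Inactive animal 9 held the 0.653 CPM, within the range of the active rams, and the other 5 inactive rams held 3.35 CPM or more, above every active ram. The log2 difference was -3.00 (SE 0.520, edgeR adjusted p 0.0187), and -2.90 without the hypothalamus library of active animal 4 (adjusted p 0.0728). Over 21 alternative fits it ran from -3.36 to -2.74, and it was called in 15 of them, with adjusted p from 6.34e-06 to 0.941. In the pineal gland the same ram stood apart: the gene had 0.272 to 1.17 CPM in active rams, 0.238 CPM in inactive animal 9 and 2.08 to 5.20 CPM in the other inactive rams. The pineal difference was -1.79 (SE 0.496, edgeR adjusted p 0.619). In the pars tuberalis it had 19.2, 32.7 and 64.1 CPM in active and 40.8, 49.99 and 58.3 CPM in inactive rams, the 58.3 CPM in animal 9, with a difference of -0.42 (SE 0.452). The next gene by p among those lower in active hypothalamus, ENSOARG00020010447, had a difference of -1.93 (edgeR adjusted p 0.284) that came with the 15.7 CPM of inactive animal 10, where the other 11 hypothalamus libraries had at most 1.31 CPM. Without animal 10 the difference was 0.45.

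Of the 165 genes, 0 were called in the pineal gland by edgeR, and 0 of 16773 genes (0%). At an unadjusted p below 0.05 stood 10 of the 165 (4 higher and 6 lower in active rams), against 1.94% of all genes tested. DESeq2 called 0 of the 165 and 20 genes in all (0.119%). The difference was positive in 82 of the 165 genes, with a median of -0.01, against 0.00416 over all genes. The groups were apart in 0 of the 165, against 0.0417% of all genes. The pineal medians of 101 genes were under 1 CPM. On the pineal libraries alone, 113 of the 165 passed the filter on low counts. The others entered the fit through their counts in other tissues, which limits the comparison with all genes.

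ENSOARG00020014542 had 0.403, 2.69 and 106 CPM (lowest, median and highest) in active and 0.0206, 0.231 and 4.16 CPM in inactive pineal gland, a log2 difference of 4.59 (SE 1.56, edgeR adjusted p 1), and of 1.76 without animal 6, the ram with 106 CPM. The hypothalamus of active animal 6 held the gene at 1174 CPM, against at most 65.1 CPM in the other 11 hypothalamus libraries, while the pars tuberalis of that ram held 143 CPM. In the pars tuberalis it was one of the least even genes, with 127 to 1290 CPM in active against 8.87 to 1254 CPM in inactive rams. ENSOARG00020002444 had 30 counts in the pineal gland of active animal 4, 7 in that of active animal 6 and 0 in the other 4 active rams, against 1 count in the 6 inactive rams together. ENSOARG00020025478 had 0.471, 0.612 and 1.01 CPM in active and 0.617, 1.16 and 3.24 CPM in inactive pineal gland (log2 difference -1.03, SE 0.320, edgeR adjusted p 0.858).

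**Figure D5:**
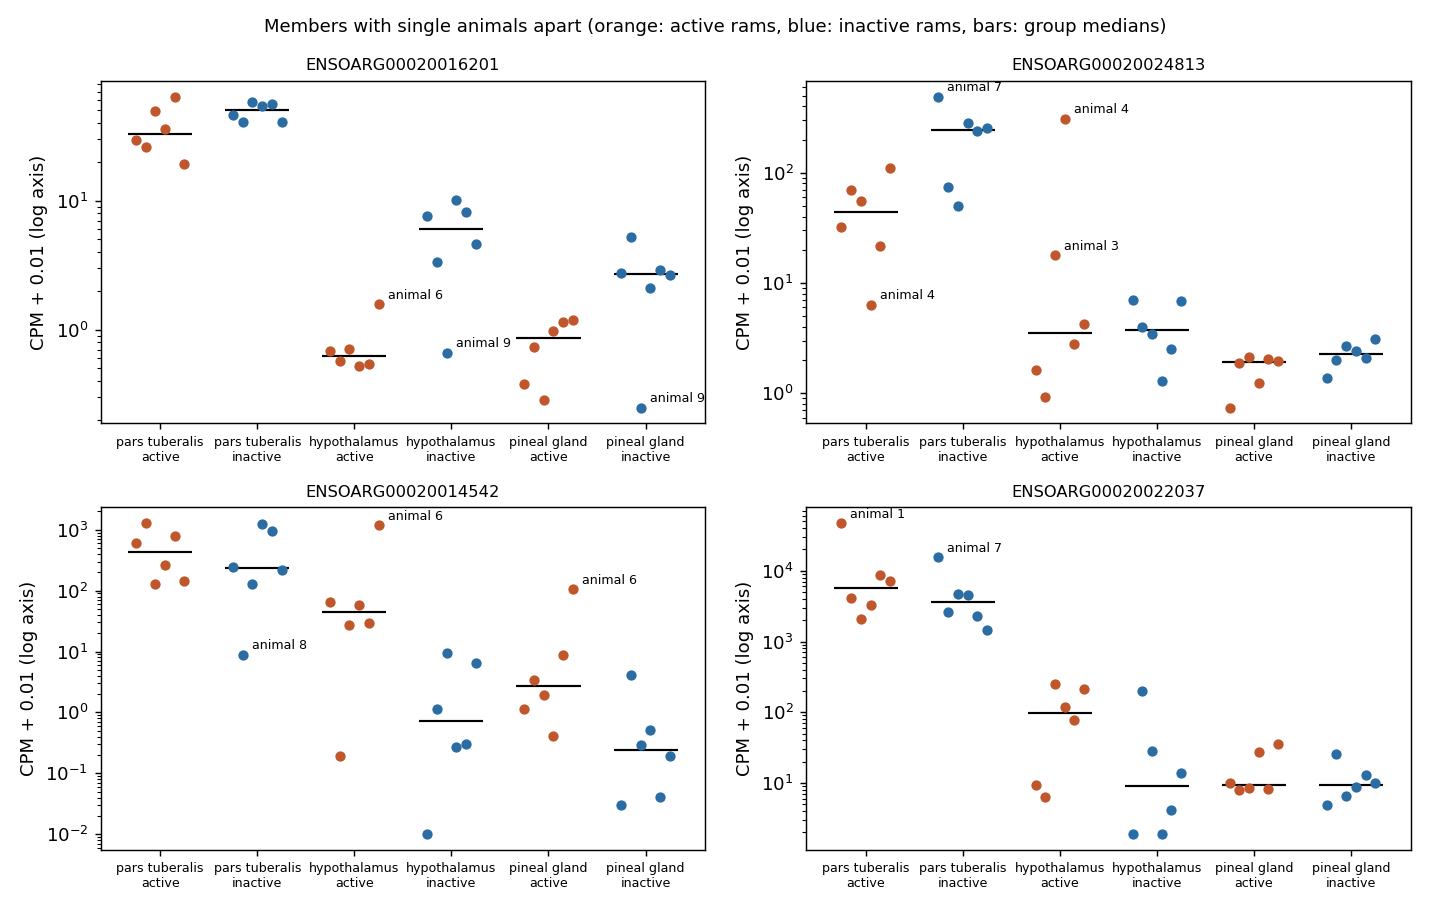
CPM + 0.01 on log axes in 36 libraries for ENSOARG00020016201, ENSOARG00020024813, ENSOARG00020014542 and ENSOARG00020022037. Points are libraries (orange for active rams, blue for inactive rams) and bars are group medians. The animals named in the text are marked, among them animal 9 with 0.653 CPM in the hypothalamus for the first gene and animal 6 with 1174 CPM in the hypothalamus for the third.

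Whether the effect of state differed between tissues was tested as an interaction, the difference in the pars tuberalis minus that in the other tissue. Against the hypothalamus, edgeR called 0 of the 165 genes and 0 genes in all (0%), and 56 of the 165 (2 positive and 54 negative) had an unadjusted p below 0.05, against 4.11% of all genes tested. Without the hypothalamus library of active animal 4 this was 24 of the 165 (9 positive and 15 negative), against 3.84% of all genes. With the animal as a fixed block it was also 24 (1 positive and 23 negative), against 3.42% of all genes, and 0 of the 165 and 0 genes in all (0%) were called. DESeq2 called 7 of the 165 (all negative) among 11 genes (0.0656%), and 0 of the 165 and 0 genes (0%) without that library. ENSOARG00020026374 had the lowest p, with an interaction of -7.19 on the log2 scale (SE 1.48, edgeR adjusted p 0.239), and of -3.51 without that library. ENSOARG00020016201 had the lowest p of those above 0, at 2.58 (SE 0.678, edgeR adjusted p 0.363). Against the pineal gland, edgeR called 0 of the 165 genes and 0 genes in all (0%), with and without the animal block, and DESeq2 called 0 of the 165 and 2 genes in all (0.0119%). At an unadjusted p below 0.05 stood 6 of the 165 (3 positive and 3 negative), against 1.44% of all genes tested. Both interactions hold genes with too few counts outside the pars tuberalis. The filter passed 131 of the 165 on the hypothalamus libraries alone and 113 on the pineal libraries alone. ENSOARG00020023123 had the lowest p, at -4.27 (SE 1.73, edgeR adjusted p 1.000), with pineal levels of 0 to 0.735 CPM in active against 0 to 0.0396 CPM in inactive rams.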

How the data were processed

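The authors deposited raw counts per gene, whole numbers that were not normalized, for 26478 genes in 36 libraries. Per the labels' protocols, frozen tissue gave stranded messenger RNA libraries with molecular identifiers, read from both ends on an Illumina instrument. The submitters' processing notes name STAR 2.7.8a, FastQC, edgeR and HTSeq without their roles. Not given in the sources used here are the genome build, the annotation, the strand setting and whether molecular identifiers were used to remove copies, so gene copies and overlapping genes are uncertain. No library copied another of its group (over 90 pairs, chi-square per degree of freedom was at least 35.7).

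The members and lists were chosen with earlier results of these data known. Levels are CPM over column totals, as the rule asks. State was tested in R 4.3.3 with edgeR 4.0.16: its filter on low counts (minimum 10), TMM factors (0.875 to 1.15), 1 robust quasi-likelihood fit of all libraries with 1 mean per group, and Benjamini-Hochberg adjustment over 16773 genes at 0.05. Standard errors are the log2 difference over the square root of F. The script was tested on simulated data. Alternatives were other scaling (RLE), no filter, DESeq2 1.42.0, limma 3.58.1 voom with the animal as a block, single tissues and libraries left out. DESeq2 without single libraries, and TMM-scaled levels, were added after seeing the data. A gene to which DESeq2 gave no adjusted p was counted as not called, and the number of such genes is not given. Named genes are at most 2 per direction and comparison, by lowest p, level or spread. Gene and marker lists by symbol were not used, since IDs carry no symbols.

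The 3 libraries of a ram share an animal number in the labels, so the numbers pair tissues. Deviations of the members from their group means correlated between tissues of the same ram at a median of -0.10 for pars tuberalis and hypothalamus, 0.01 for pars tuberalis and pineal gland and 0.10 for hypothalamus and pineal gland. Over all genes tested the medians were 0.05, 0.22 and 0.18 for the same pairs of tissues, against -0.02 to -0.00392 between different rams. State compares different rams within a tissue.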

Additional observations from a re-analysis of the deposited data

Results flagged for a closer look

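Values that stood far from the rest of their group of 6 libraries were sought in 82 groups, those of the library levels and of the genes named in the report, by the gap to the next value as a share of the group's range (Dixon's test at 95%). Chance alone marks about 1 in 20 groups, and 27 values were found. That share does not apply here, since many of the genes were named for a low p, a large spread or a high single library, and the groups overlap in their libraries.

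The hypothalamus library of active animal 4 accounts for 10 of them. Its typical level of the 165 genes was 18.0% and its sum 6134 CPM. Single genes stood there at 92.5 CPM (ENSOARG00020004662), 169 CPM (ENSOARG00020005887), 1340 CPM (ENSOARG00020009294), 146 CPM (ENSOARG00020009307), 25.4 CPM (ENSOARG00020016225), 51.7 CPM (ENSOARG00020017686), 309 CPM (ENSOARG00020024813) and 25.0 CPM (ENSOARG00020026374).

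Other hypothalamus values were those of inactive animal 12 for ENSOARG00020004662 (1.32 CPM) and ENSOARG00020009307 (2.07 CPM), of inactive animal 10 for ENSOARG00020010447 (15.7 CPM) and of active animal 6 for ENSOARG00020016201 (1.56 CPM).

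In the pars tuberalis, active animal 1 had a sum of 74143 CPM, with 47381 CPM of ENSOARG00020022037 and a low 119 CPM of ENSOARG00020005364. Inactive animal 7 had a typical level of 78.6% (94.6% with TMM scaling), with 15556 CPM of ENSOARG00020022037 and a low 109 CPM of ENSOARG00020005364. Active animal 3 had 292 CPM of ENSOARG00020011976.

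In the pineal gland, active animal 3 had 5.69 CPM of ENSOARG00020011976. Active animal 4 had 0.525 CPM of ENSOARG00020002444 and active animal 6 had 106 CPM of ENSOARG00020014542. Inactive animal 8 had 4.16 CPM of ENSOARG00020014542 and 0.0248 CPM of ENSOARG00020002444, which was 1 count, and inactive animal 12 had 3.24 CPM of ENSOARG00020025478.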

How the results depend on the processing

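In the pars tuberalis the count of called members was 0 under every alternative fit. All genes called there were 1 with DESeq2, also without the hypothalamus library of active animal 4 or the pineal library of inactive animal 10, and 0 to 1 when single rams were left out. In the hypothalamus, members called (all genes called) were 36 (138) with DESeq2, 34 (133) with DESeq2 without the pineal library of inactive animal 10, 0 (0) without the hypothalamus library of active animal 4, 0 (0) in the fit of that tissue alone, which tested 131 of the 165, 0 (1) with the replicate block (animal as a random block) and 0 to 17 (0 to 54) when single rams were left out. DESeq2 without the library of active animal 4 called 79 genes. The median difference of members in the hypothalamus was 0.27 without that library, 0.28 with DESeq2 without it, and 0.27 to 1.22 when single rams were left out. In the pineal gland DESeq2 called 20 genes, 22 without the hypothalamus library of active animal 4 and 5 without the pineal library of inactive animal 10. Without the hypothalamus library it also called 1 member there, ENSOARG00020023123, named after its value was seen. The median pineal difference was 0.0970 without the pineal library of animal 10, and -0.0992 to 0.0976 when single rams were left out. For the interaction with the hypothalamus DESeq2 called 7 members, and 3 without the pineal library of inactive animal 10. The replicate block (animal as a fixed factor) called 0 in both interactions. ENSOARG00020010447 had differences of -2.16 to 0.45 in the hypothalamus, and interactions of -0.13 to 2.52, when single rams were left out, and changed sign only without animal 10. A fold minimum of 5 gave 296 members and one of 20 gave 92. Of the other counts and medians 183 stayed close to their values. Of the values for single genes 418 kept their call or its absence, 68 lost a call and 4 gained one. The 418 include the values of genes that were never called. All 68 belonged to the 7 genes called in the hypothalamus, each of which kept its call in 8 to 15 of 20 or 21 alternative fits. The cause of these changes was not tested. The single-tissue fits hold fewer samples, and low counts of the members in the hypothalamus and pineal gland limit what those tissues can show.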
